A study of Mus musculus with 8 samples.

Results

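Iron and heme handling was described here through 10 genes, Hmox1, Slc40a1, Tfrc, Slc11a1, Slc11a2, Fth1, Hp, Alas1, Alas2 and Slc4a1, in myeloid cells sorted from mice. They were chosen by name. All 23 probe sets of the array that were annotated to one of these genes and to no other gene were taken, of 45101 probe sets in all, and each of the 10 genes had at least 1. The whole array held 18193 genes with a probe set of their own. The cells carried CD11b and Gr-1, the surface markers used to sort immature myeloid cells and myeloid-derived suppressor cells, and the study asked how they differ when histidine decarboxylase (HDC), the enzyme that makes histamine, is deleted.

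Every mouse was C57BL/6J and carried HDC-EGFP, a transgene that reports HDC expression by green fluorescence. The tumor pool labelled HDC-KO (HDC-EGFP/HDC-KO) and the WT tumor pool (HDC-EGFP) each came from colon tumors of 5 mice aged 7 months that had received 1 dose of the carcinogen azoxymethane and then 10 days of dextran sodium sulfate, with tumors taken 22 to 24 weeks later. The HDC-KO marrow pool (HDC-EGFP/HDC-KO) and the WT marrow pool (HDC-EGFP) each came from 3 untreated mice aged 3 to 4 months. Below, tumor cells and marrow cells mean the myeloid cells sorted from tumor or marrow, not cancer cells. Red blood cells had been lysed in the marrow samples, and the labels name a gate on HDC expression for the marrow cells only. Tumor and marrow therefore also differed in age, treatment and gate, which cannot be told apart from tissue. Each of the 4 pools was measured on 2 technical arrays, so every test below sets 1 pool against another with only the scatter of repeat arrays as its error, which leaves variation among mice unmeasured.

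Heme is built in mitochondria and the cytosol by a chain of enzymes that starts with ALAS, of which ALAS1 is the general form and ALAS2 the form of red cell precursors. Heme oxygenase breaks heme down and frees its iron, which ferritin stores and ferroportin exports, while the transferrin receptor and the divalent metal carriers bring iron in. Macrophages are known for recycling the iron of old red cells in this way, and neutrophils for granule and secreted proteins that bind iron or hemoglobin.

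Values are log2 expression values. A value under log2 5 was taken as background, a fold change against a pool under that level is given as "at least" with that pool raised to it, and a gene was called different at an adjusted p under 0.05 with at least a 2-fold difference. The Hdc probe set had a mean of 9.83 in the HDC-KO marrow pool against 13.18 in the WT marrow pool, a difference of -3.35 ± 0.05 (SE). In tumor it had 13.03 in the pool labelled HDC-KO against 13.24 in the WT pool, a difference of -0.21 ± 0.05, so that the level of Hdc goes against the label of that tumor pool and each direction drawn from it rests on the label alone. Whether the probe set lies in the deleted part of the gene is not known here. Itgam, which encodes CD11b, was between 11.25 and 12.38 in the 4 pool means.

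The sorted pools also differed in markers of other cells. The mean level of 14 macrophage markers was 11.33 to 11.37 on the arrays of the tumor pool labelled HDC-KO and 9.87 to 9.90 in the WT tumor pool, against 6.84 to 6.94 in the HDC-KO marrow pool and 6.59 to 6.60 in the WT marrow pool. The mean of 16 intestinal epithelium markers was 10.12 to 10.22 in the tumor pool labelled HDC-KO and 7.51 in the WT tumor pool, and between 2.86 and 3.02 on the marrow arrays. Between the tumor pools, 9 of 13 macrophage markers tested and 14 of 15 epithelial markers tested were higher in the pool labelled HDC-KO. Among the epithelial markers, Cdx2 passed the filter only through that pool, so it had to be higher. In the same comparison 7 of 8 markers of granulocyte precursors were lower, and limma called 0 of 7 mature neutrophil markers. Of the 7, 4 had an unadjusted p under 0.05. These 4 also had a limma adjusted p under 0.05 but were under 2-fold: Mmp9 (-0.94), Mmp8 (-0.81), Itgam (-0.67) and Csf3r (0.87). Of lymphocyte markers, 2 of 4 for B and plasma cells were higher, and 3 of 5 for T and NK cells were higher and 1 lower. Of those 3, Cd3g and Gzmb were under log2 5 in every other pool. They were tested only through the tumor pool labelled HDC-KO, so they had to be higher there. Of all genes tested, 26% were called in this comparison and 15.5% were called higher. Of 11 cell cycle genes tested 10 were lower, and the mean of the 12 measured was 7.46 in the tumor pool labelled HDC-KO and 10.08 to 10.16 in the WT tumor pool, against 10.50 to 10.55 on the marrow arrays. The part of these markers in the differences below was not tested. In bulk RNA, fewer cells of a type and less RNA per cell cannot be told apart. The 3′ minus 5′ log2 difference of the β-actin control, a sign of RNA quality, was 0.67 to 0.68 in the tumor pool labelled HDC-KO, 0.51 to 0.53 in the WT tumor pool and 0.47 to 0.53 in marrow.

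**Figure D1:**
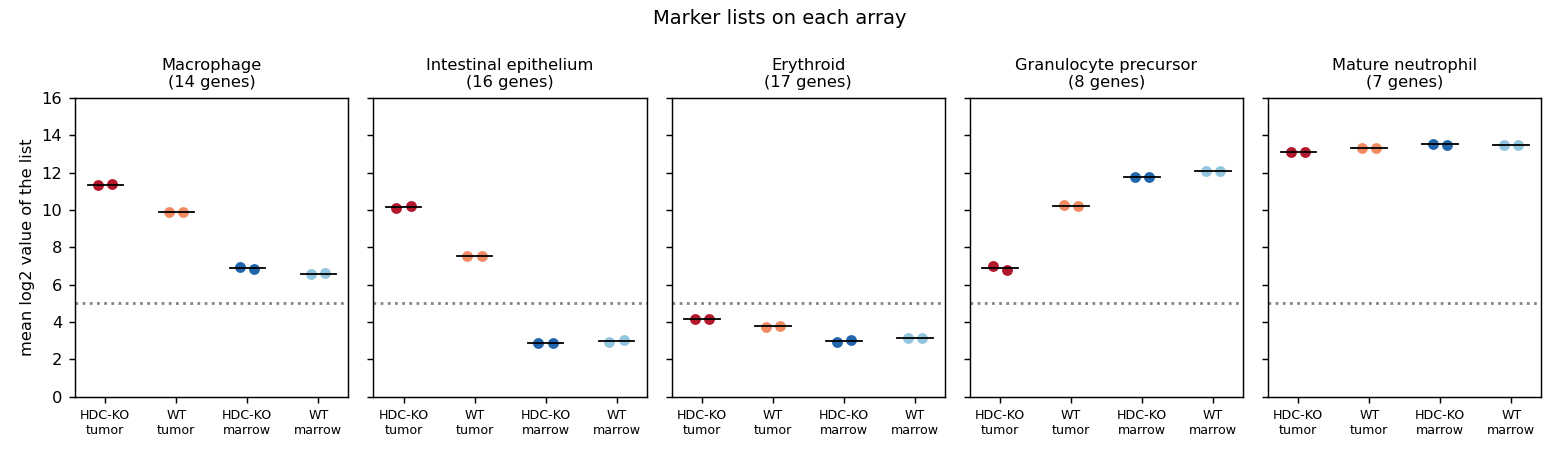
Mean log2 value of 5 marker lists on each array. Each point is 1 array, each black bar the mean of a pool's 2 arrays, and the dotted line is log2 5. Macrophage and epithelial lists lie higher in the tumor pool labelled HDC-KO than in the WT tumor pool (11.33 to 11.37 against 9.87 to 9.90, and 10.12 to 10.22 against 7.51), the granulocyte precursor list lies lower, and the erythroid list stays under log2 5 on every array.

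Of the 10 genes, 9 passed the filter of 2 arrays at log2 5 or above, and Slc11a2 did not. In tumor, Hmox1, Alas2 and Slc4a1 rose in the pool labelled HDC-KO against the WT pool, 3 of 9 tested members (33.3%), where 26% of all 8173 genes tested were called and 15.5% were called higher. Alas2 was tested only because of that pool, the single one where it was above background, so its place in the count had to follow, and of the other 8 members 2 rose. In marrow, Slc4a1 fell in the HDC-KO pool and no other member was called, 1 of 9 (11.1%) beside 3.82% of all genes called and 2.02% called lower. Against marrow, tumor cells labelled HDC-KO had 4 members higher (Hmox1, Slc11a1, Alas2 and Slc4a1) beside 36.5% of all genes called. WT tumor cells had 2 higher than WT marrow cells (Hmox1 and Slc4a1) beside 16.4%. The genotype difference itself differed between tumor and marrow for Hmox1, Alas2 and Slc4a1, beside 28.5% of all genes. Alas2, tested only through the tumor pool labelled HDC-KO, had to appear here and among the 4 members higher than in HDC-KO marrow. These comparisons share pools, so they are not independent of each other.

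**Figure D2:**
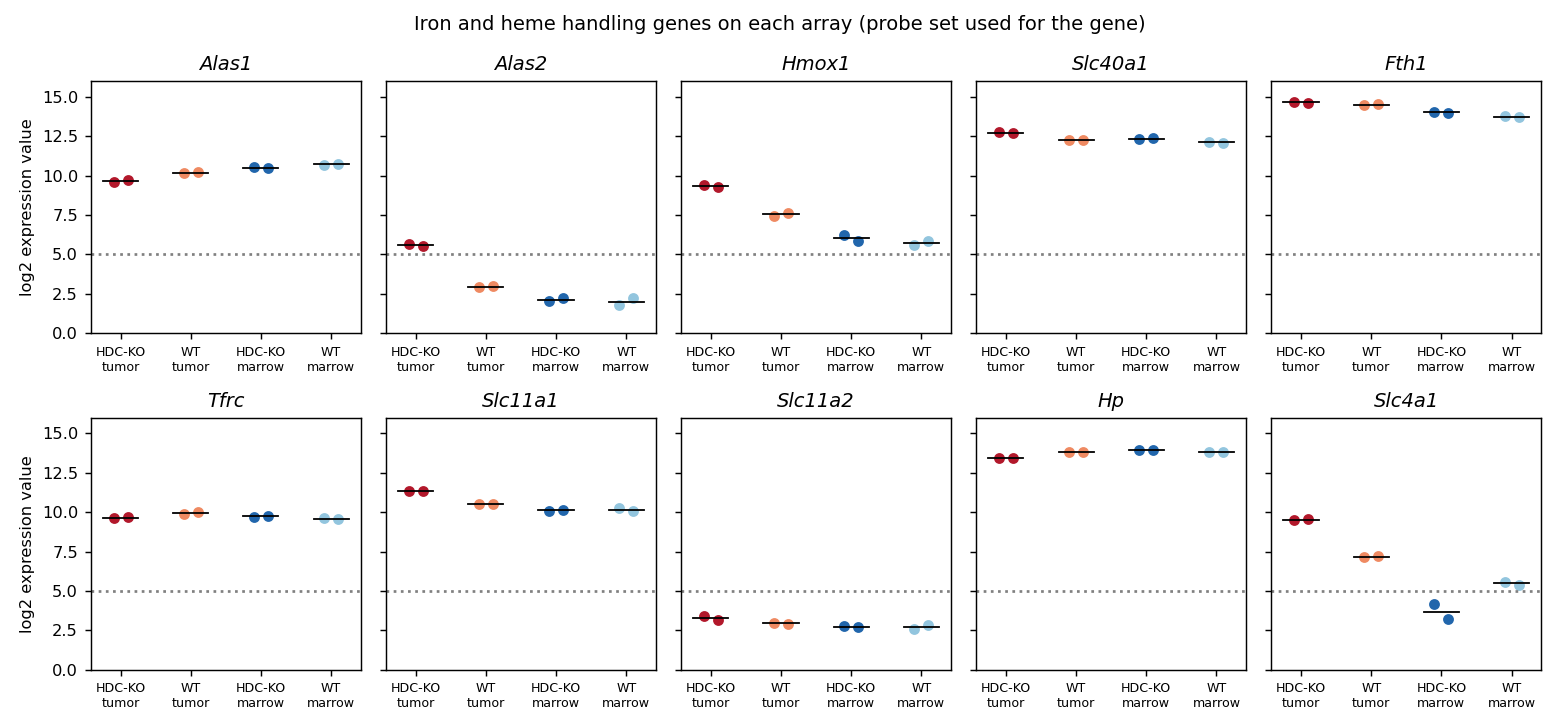
Log2 expression value of each of the 10 genes on each array, for the probe set used for the gene. Each point is 1 array, each black bar the mean of a pool's 2 arrays, and the dotted line is log2 5. Hmox1, Alas2 and Slc4a1 stand highest in the tumor pool labelled HDC-KO (9.31, 5.59 and 9.52), Alas1 stands highest in the WT marrow pool (10.72), and Slc11a2 is under the line on every array.

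Hmox1 encodes heme oxygenase 1, the inducible enzyme that opens the heme ring and releases iron. Its probe set (1448239_at) read 9.37 and 9.25 in the tumor pool labelled HDC-KO, against 7.43 and 7.64 in the WT tumor pool. It read 6.25 and 5.83 in the HDC-KO marrow pool, against 5.59 and 5.82 in the WT marrow pool. The 4 pools thus stood in the order tumor labelled HDC-KO, WT tumor, HDC-KO marrow, WT marrow without overlap, but the marrow pools were only 0.34 ± 0.16 apart (SE, limma, adjusted p = 0.19). Between the tumor pools Hmox1 rose 3.44-fold in the pool labelled HDC-KO (log2 1.78 ± 0.16, limma, adjusted p = 0.00011). Tumor stood 9.68-fold above marrow in cells labelled HDC-KO and 3.56-fold above marrow in WT cells. The genotype difference was larger in tumor than in marrow by 1.44 ± 0.23 (limma, adjusted p = 0.0018).

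Other genes of heme breakdown and heme transport lay on the same side between the tumor pools. Of 12 such genes measured, 10 were tested, all 10 differences were above 0, and 3 rose and 0 fell in the tumor pool labelled HDC-KO against WT, with a median difference of 0.94 beside 0.03 over all genes. Of all genes tested, 26% were called between the tumor pools and 15.5% were called higher. The same shares stand beside the tumor counts of the gene lists below, and 3.82% called stands beside their marrow counts. Abcg2, a heme and porphyrin exporter, averaged 9.20 in the pool labelled HDC-KO against 6.57 in the WT tumor pool, a 6.18-fold rise. Lrp1, the receptor for heme bound to hemopexin, averaged 9.92 against 8.10, a 3.52-fold rise. Blvrb, for a biliverdin reductase, averaged 8.51 against 6.95, a 2.94-fold rise. Blvra, for the other biliverdin reductase, averaged 8.36 against 7.41, 1.93-fold, and was not called. In marrow limma called 0 of these 10, of which 3 had an unadjusted p under 0.05, 4 were above 0 and 6 below, and their median difference was -0.05. Those 3 also had a limma adjusted p under 0.05 but were under 2-fold: Abcg2 (0.83), Slc48a1 (-0.67) and Cd163 (0.80, with both marrow pools under log2 5). Hmox2, the constitutive heme oxygenase, had 10.22 in the tumor pool labelled HDC-KO and 10.14 in the WT tumor pool, and was not called. Against marrow, 7 of the 10 rose in tumor cells labelled HDC-KO and 5 rose in WT tumor cells. These counts stand beside 36.5% and 16.4% of all genes called. In both counts, Cd163, Lrp1 and Hebp1 passed the filter only through tumor arrays, so they had to be higher in tumor. With marrow raised to log2 5, Lrp1 rose by at least 30.2-fold and at least 8.59-fold in those 2 comparisons. Cd163 rose by at least 1.47-fold and at least 1.41-fold, under the 2-fold needed. Abcg2, among the 5, lost that call without array 2 of the WT tumor pool (0.92). Macrophage and epithelial markers stood higher in the same pools, and their part in these differences was not tested.

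Slc40a1 encodes ferroportin, the cell's iron exporter. Its probe set 1417061_at read 12.74 and 12.68 in the tumor pool labelled HDC-KO, against 12.28 and 12.26 in the WT tumor pool. In marrow it read 12.31 and 12.37 in the HDC-KO pool, against 12.13 and 12.08 in the WT pool. The HDC-KO pool was the higher of each pair without overlap, by 0.44 ± 0.05 in tumor (limma, adjusted p = 0.00041) and by 0.24 ± 0.05 in marrow (limma, adjusted p = 0.025), both under 2-fold. With no filter on low values the marrow difference had an adjusted p of 0.11 by limma. The second probe set, 1448566_at, gave the pools the same order, with means of 11.61 in the tumor pool labelled HDC-KO, 10.99 in the WT tumor pool, 10.99 in the HDC-KO marrow pool and 10.46 in the WT marrow pool, and there the arrays of WT tumor and HDC-KO marrow overlapped.

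Fth1 encodes the heavy chain of ferritin, which oxidizes and stores iron. Its probe set 1448771_a_at read 14.66 and 14.63 in the tumor pool labelled HDC-KO, against 14.48 and 14.53 in the WT tumor pool. The HDC-KO marrow pool had 14.02 and 14.00, against 13.75 and 13.70 in the WT marrow pool. Tumor stood above marrow in both genotypes without overlap, by 0.63 ± 0.05 in cells labelled HDC-KO and by 0.78 ± 0.05 in WT cells (limma, adjusted p = 3.9e-05 and 4.8e-05), 1.72-fold in WT. The HDC-KO pool was the higher in each tissue, by 0.14 ± 0.05 in tumor and 0.28 ± 0.05 in marrow (limma, adjusted p = 0.047 and 0.012, and 0.17 and 0.06 with no filter on low values), and these 2 differences were not called to differ from each other (-0.15 ± 0.07, limma, adjusted p = 0.11, 95% interval -0.32 to 0.02). The second probe set, 1427021_s_at, gave the same order of pools.

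Of 15 other genes of iron storage, export and their control that were measured, 7 were tested. In tumor, Heph rose and Ncoa4 fell in the pool labelled HDC-KO, and the median difference was 0.05. Heph passed the filter only through the 2 arrays of the pool where it is high, so it had to differ. Heph, for the ferroxidase hephaestin that works beside ferroportin in the gut, averaged 6.97 in the pool labelled HDC-KO against 4.08 in the WT tumor pool, at least 3.91-fold higher. Ncoa4, the receptor that takes ferritin to the lysosome for iron release, averaged 11.28 against 12.46 and fell by 1.18 on the log2 scale. In marrow limma called 0 of the 7, and 2 had an unadjusted p under 0.05. Of these 2, Aco1 (0.26) was under 2-fold with a limma adjusted p of 0.023. Hamp, which encodes the hormone hepcidin that removes ferroportin from the cell surface, was under log2 5 in all 4 pools, as was Cp, the plasma ferroxidase ceruloplasmin.

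Tfrc encodes the transferrin receptor, the main door for iron-loaded transferrin. Its probe set 1452661_at read 9.63 and 9.70 in the tumor pool labelled HDC-KO, against 9.87 and 10.00 in the WT tumor pool. In marrow it read 9.72 and 9.75 in the HDC-KO pool, against 9.64 and 9.57 in the WT pool. The pools lay within 0.33 of each other, with the WT tumor pool highest and with the tumor pool labelled HDC-KO and the WT marrow pool overlapping. The genotype differences had opposite signs, -0.27 ± 0.06 in tumor (limma, adjusted p = 0.0089) and 0.13 ± 0.06 in marrow (limma, adjusted p = 0.20), and differed from each other by -0.40 ± 0.09 (limma, adjusted p = 0.0083), all under 2-fold. The other 5 probe sets of Tfrc, of which 3 are control sets of the array, were between 1.98 and 2.90 on every array.

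**Figure D3:**
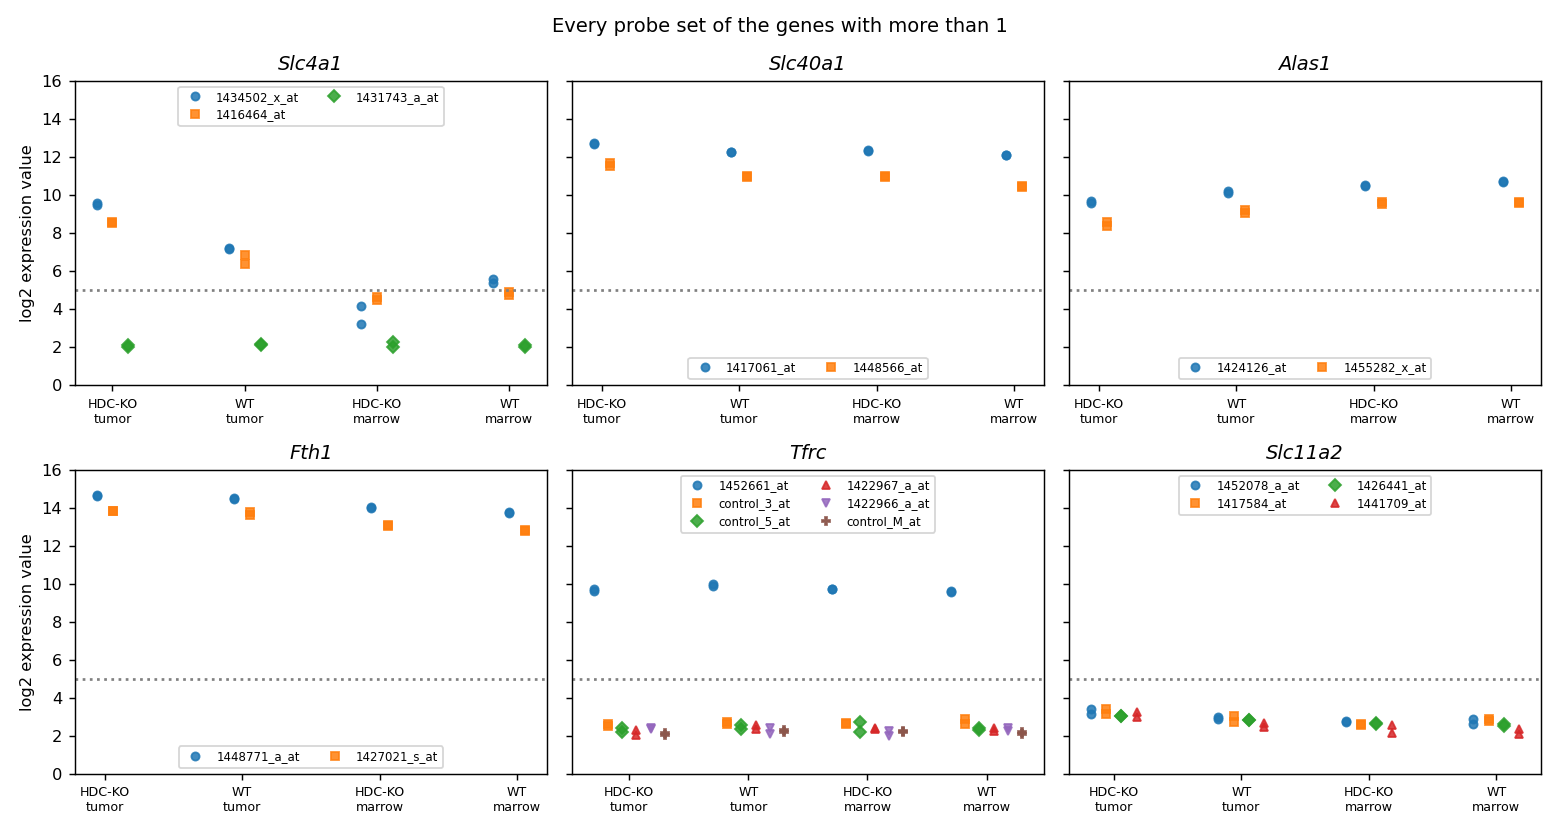
Every probe set of the 6 genes with more than 1 probe set, by pool, on the log2 scale. Each symbol is 1 array, the 2 arrays of a pool share a position, and the dotted line is log2 5. Slc40a1, Alas1 and Fth1 have 2 probe sets that move together, 5 of the 6 Tfrc sets and all 4 Slc11a2 sets lie under log2 5, and both Slc4a1 sets that were detected in tumor are under log2 5 in the HDC-KO marrow pool (means of 3.68 and 4.55).

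Slc11a1 encodes NRAMP1, which pumps iron and manganese out of the phagosome of macrophages and neutrophils and so starves engulfed microbes. In 30 bases before the start of Slc11a1, shown because NRAMP1 is a myeloid gene and PU.1 a myeloid transcription factor, the letters GAGGAA were found. They are in capitals, on chr1:74375039-74375068 (GRCm38.p6, plus strand, from RefSeq), with the match beginning 152 bases before the start.
Slc11a1: gggtatccaggaGAGGAAcgaaggtcaaaa
GAGGAA on either strand was present in 23.3% of 32851 promoter windows of 250 bases, so a match is a description of these letters and not a site.
Its probe set (1420361_at) read 11.38 and 11.35 in the tumor pool labelled HDC-KO, against 10.54 and 10.53 in the WT tumor pool. It read 10.10 and 10.15 in the HDC-KO marrow pool, against 10.25 and 10.09 in the WT marrow pool. The tumor pools were apart from each other and from marrow, while the marrow pools overlapped. Between the tumor pools the difference was 1.77-fold (log2 0.82 ± 0.07, limma, adjusted p = 6.6e-05), under the 2-fold needed for a call. Slc11a1 rose 2.35-fold in tumor cells labelled HDC-KO against HDC-KO marrow cells (log2 1.24 ± 0.07), against 1.29-fold in the WT pair. The genotype difference was larger in tumor than in marrow by 0.87 ± 0.09 (limma, adjusted p = 0.00036).

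Slc11a2 encodes DMT1, the carrier that moves iron out of the transferrin endosome and across the gut lining. Its 4 probe sets were between 2.11 and 3.40 on all 8 arrays, under log2 5, so no fold change is given.

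Of 15 other genes of iron uptake, reduction and intracellular movement that were measured, 8 were tested, and in tumor 1 rose and 0 fell in the pool labelled HDC-KO, with a median difference of 0.18. Of the 8 differences 4 were above 0 and 4 below. Ltf (-0.73) and Lcn2 (-0.47) were among those below, under 2-fold (limma, adjusted p = 2.9e-05 and 0.0002). The gene that rose was Hfe, which binds the transferrin receptor and is the gene of hereditary iron overload in humans. Hfe averaged 10.02 in the tumor pool labelled HDC-KO against 7.17 in the WT tumor pool, a 7.19-fold rise, and was under log2 5 in both marrow pools. In marrow 1 of 8 rose: Steap4, a metalloreductase of endosomes, averaged 8.01 in the HDC-KO pool against 5.95 in the WT pool, a 4.17-fold rise. Steap4 also rose in tumor against marrow, 11.8-fold in cells labelled HDC-KO and 29.6-fold in WT cells.

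**Figure D4:**
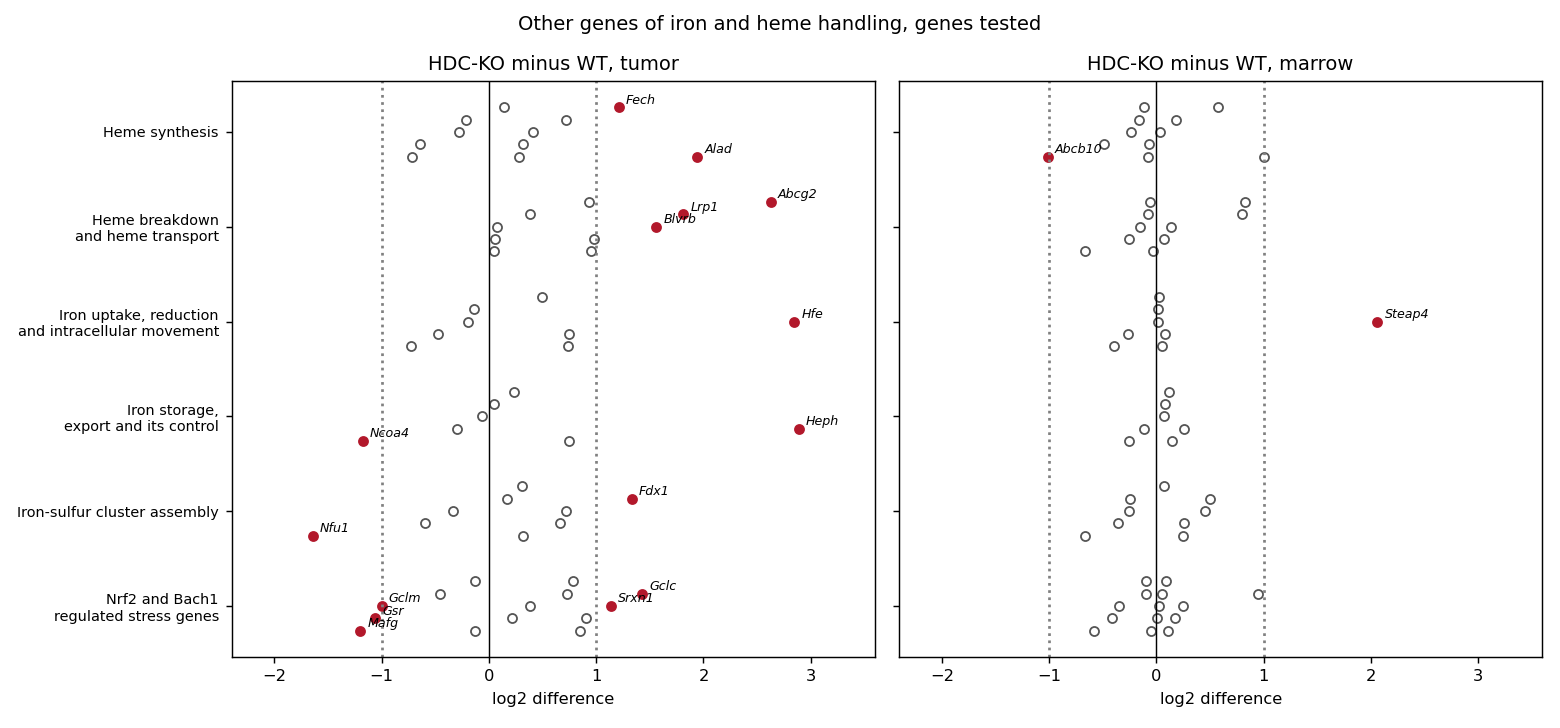
Log2 difference, HDC-KO minus WT, of the other iron and heme handling genes tested, in tumor and in marrow. Each point is 1 gene, filled points are called genes, and dotted lines mark 2-fold. Called genes are named: in marrow these are Abcb10 and Steap4, and in tumor Hfe and Abcg2 lie far to the right (2.85 and 2.63) and Nfu1 furthest to the left (-1.64). The point for Heph uses a WT tumor mean under log2 5, so its place is not a measured size.

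Alas1 and Alas2 encode the 2 forms of the first enzyme of heme synthesis. Alas1 (1424126_at) read 9.60 and 9.69 in the tumor pool labelled HDC-KO, against 10.13 and 10.22 in the WT tumor pool. It read 10.54 and 10.48 in the HDC-KO marrow pool, against 10.68 and 10.75 in the WT marrow pool. The pools stood in that order from low to high without overlap, the reverse of Hmox1. Alas1 was lower in the pool labelled HDC-KO by -0.53 ± 0.06 in tumor (limma, adjusted p = 0.00039), and the marrow difference was -0.21 ± 0.06 (limma, adjusted p = 0.066). Against marrow, tumor cells labelled HDC-KO differed by -0.87 ± 0.06 and WT tumor cells by -0.54 ± 0.06, both under 2-fold. The second probe set (1455282_x_at) gave -1.10 for the first of these, past 2-fold (limma on every probe set, adjusted p = 4.3e-05), and there the marrow pools overlapped.

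Alas2 (1451675_a_at) read 5.65 and 5.53 in the tumor pool labelled HDC-KO, against 2.89 and 2.99 in the WT tumor pool. It read 2.01 and 2.19 in the HDC-KO marrow pool, against 1.76 and 2.23 in the WT marrow pool. Only the tumor pool labelled HDC-KO was above background, and the gene passed the filter through those 2 arrays alone, so a difference there was bound to appear. Measured on the deposited scale the tumor difference was 2.65 ± 0.16 (limma, adjusted p = 1.8e-05), and as a bound Alas2 was at least 1.51-fold higher in the pool labelled HDC-KO. With all values raised to log2 5 the difference was 0.59 and no longer a call. The 250 bases before the Alas2 and Alas1 starts are shown because the 2 genes encode the same enzyme step. Since the Alas2 rise was bound to appear, no contrast in regulation is drawn from them. Capitals mark matches on either strand in sequences from RefSeq (GRCm38.p6). The motif searched for GATA factors was AGATAA. For KLF1, a red cell factor, it was CCACCC. For PU.1 it was again GAGGAA.
Alas2, chrX:150547167-150547416, plus strand: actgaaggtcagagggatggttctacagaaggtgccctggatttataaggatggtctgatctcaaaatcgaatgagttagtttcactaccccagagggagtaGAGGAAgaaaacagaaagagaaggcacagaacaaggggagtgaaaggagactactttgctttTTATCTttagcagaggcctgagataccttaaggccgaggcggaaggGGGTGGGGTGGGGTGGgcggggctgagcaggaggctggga
Alas1, chr9:106247955-106248204, minus strand: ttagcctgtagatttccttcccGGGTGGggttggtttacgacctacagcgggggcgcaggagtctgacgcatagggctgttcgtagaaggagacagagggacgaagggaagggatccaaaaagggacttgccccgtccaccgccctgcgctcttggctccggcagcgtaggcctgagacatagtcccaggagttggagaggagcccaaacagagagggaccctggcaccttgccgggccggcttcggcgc
The Alas2 window held GAGGAA 148 bases before the start, AGATAA on the reverse strand at 86, and CCACCC on the reverse strand at 40, 35 and 30, the last 3 overlapping each other. The first Alas1 window held 1 CCACCC, at 228, and the other Alas1 window held no match. CCACCC was not particular to Alas2: a Tfrc window held it at 186, 162 and 6. Windows of Fth1 and Slc11a1 held it at 98 and 124. AGATAA was present in 9.99% of the 32851 windows of 250 bases and CCACCC in 28.1%. The promoter table used held 5 of the 10 genes.

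Of 13 other genes of heme synthesis that were measured, 11 were tested, and 2 rose and 0 fell in the tumor pool labelled HDC-KO, with a median difference of 0.28. Of the 11 differences 7 were above 0 and 4 below. Ppox (-0.72) and Abcb10 (-0.64) were among those below, under 2-fold (limma, adjusted p = 0.0037 and 0.0088). Alad, the enzyme after ALAS, averaged 7.75 in the tumor pool labelled HDC-KO against 5.80 in the WT tumor pool, a 3.84-fold rise. Fech, which inserts iron into the ring at the last step, averaged 9.07 against 7.86, a 2.31-fold rise. Averaged over its probe sets Fech gave 0.9996, just under the 2-fold needed. In marrow 1 of 11 was called: Abcb10, a mitochondrial transporter needed for heme synthesis in red cell precursors, averaged 6.60 in the HDC-KO pool against 7.61 in the WT pool, a difference of -1.01. That call was lost without array 1 of the WT marrow pool (-0.99) or array 2 of the HDC-KO marrow pool (-0.86). In the same comparison 6 of the 11 had an unadjusted p under 0.05. Of these, Cpox (0.57, with the WT marrow pool under log2 5) was under 2-fold with a limma adjusted p of 0.0083. Against marrow, 2 of the 11 rose and 2 fell in tumor cells labelled HDC-KO, and 1 rose and 2 fell in WT tumor cells. These counts stand beside 36.5% and 16.4% of all genes called. Alad rose in both, but passed the filter only through tumor arrays, so it had to be higher. With marrow raised to log2 5 it was at least 6.71-fold and at least 1.75-fold higher. Fech rose 4.95-fold in cells labelled HDC-KO. Ppox, which makes the last ring before iron, fell by 2.63 in tumor cells labelled HDC-KO and by 1.74 in WT tumor cells. Abcb10 also fell (-1.34 and -1.71).

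Slc4a1 encodes band 3, the chloride and bicarbonate exchanger of the red cell membrane, and is also made in kidney. Its probe set 1434502_x_at read 9.48 and 9.57 in the tumor pool labelled HDC-KO, against 7.17 and 7.20 in the WT tumor pool. In marrow it read 4.16 and 3.20 in the HDC-KO pool, against 5.57 and 5.39 in the WT pool. No 2 pools overlapped, and the HDC-KO pool was the higher in tumor and the lower in marrow. In tumor Slc4a1 rose 5.07-fold in the pool labelled HDC-KO (log2 2.34 ± 0.28, limma, adjusted p = 0.00043). In marrow it fell by 1.81 ± 0.28 on the deposited scale (limma, adjusted p = 0.0076), at least 1.40-fold lower as a bound. The genotype difference in tumor exceeded that in marrow by 4.15 ± 0.40 on the deposited scale (limma, adjusted p = 0.00023), and by 2.83 with values raised to log2 5. Against marrow, Slc4a1 was at least 23.0-fold higher in tumor cells labelled HDC-KO and 3.25-fold higher in WT tumor cells.

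The second probe set of Slc4a1, 1416464_at, read 8.57 and 8.55 in the tumor pool labelled HDC-KO, against 6.83 and 6.37 in the WT tumor pool. In marrow it read 4.49 and 4.61 in the HDC-KO pool, against 4.91 and 4.75 in the WT pool, all under log2 5. It gave the tumor rise again (1.96), while the marrow difference was -0.28 (limma on every probe set, adjusted p = 0.25), so the marrow call rests on 1 probe set, and it was also lost with values raised to log2 5 (-0.48) or averaged over probe sets (-0.68). The third, 1431743_a_at, was between 1.99 and 2.25 on every array. Of 17 erythroid markers measured, 14 were under log2 5 in all 4 pools, among them Hba-a1, the alpha globin chain of hemoglobin (2.25 to 2.49), the transcription factors Klf1 and Gata1, and the membrane genes Epb42, Sptb, Ank1, Rhag and Kel. The 3 that were tested, Car1, Car2 and Hemgn, were all higher in the tumor pool labelled HDC-KO than in the WT tumor pool. Car1 and Car2 are carbonic anhydrases that the colon lining also makes, and Car1 averaged 13.17 in the pool labelled HDC-KO against 11.08 in the WT tumor pool. Hemgn, a nuclear protein of blood progenitors, passed the filter only through the 2 arrays of the pool labelled HDC-KO, and with values raised to log2 5 its difference was 0.50, under a call. The mean of the 17 markers was 4.16 to 4.17 in the tumor pool labelled HDC-KO and 3.76 to 3.78 in the WT tumor pool, against 2.92 to 3.01 in the HDC-KO marrow pool and 3.12 to 3.13 in the WT marrow pool. That mean includes 14 markers at background, with Car1 and Car2, so it gives no order of red cell content. The part of the epithelial and macrophage markers in the Slc4a1 and Alas2 differences was not tested.

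Hp encodes haptoglobin, the protein that binds free hemoglobin, made by liver and by maturing neutrophils, which store it in granules. Its probe set (1448881_at) read 13.42 and 13.42 in the tumor pool labelled HDC-KO, against 13.83 and 13.79 in the WT tumor pool. It read 13.98 and 13.93 in the HDC-KO marrow pool, against 13.84 and 13.85 in the WT marrow pool. The tumor pool labelled HDC-KO was the lowest without overlap, and the other 3 pools lay within 0.14 of each other. The tumor difference was -0.40 ± 0.05 (limma, adjusted p = 0.00041) and the marrow difference 0.11 ± 0.05 (limma, adjusted p = 0.17), which differed from each other by -0.50 ± 0.07 (limma, adjusted p = 0.00092), all under 2-fold. All 5 hepatocyte markers measured were under log2 5 in every pool. Markers of granulocyte precursors stood lower in the same tumor pool, at 6.80 to 7.01 against 10.22 to 10.24 in the WT tumor pool, and their part in the Hp difference was not tested.

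**Figure D5:**
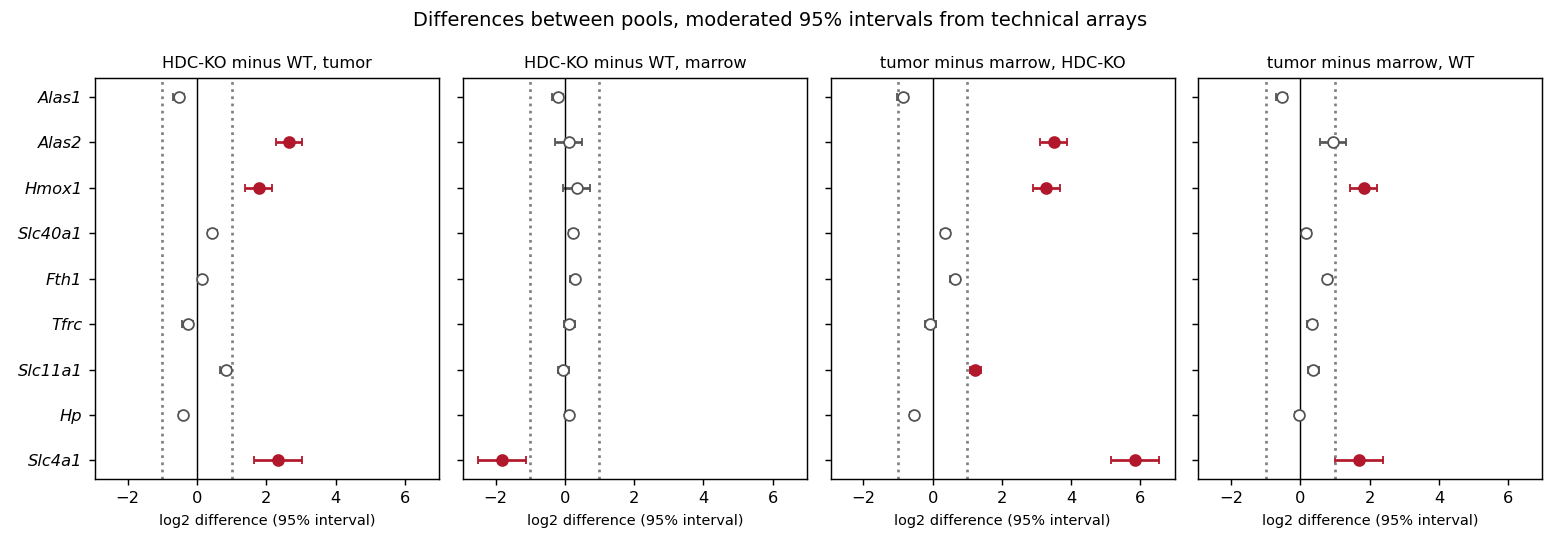
Log2 differences of the 9 tested genes in 4 comparisons, HDC-KO minus WT in tumor and in marrow, and tumor minus marrow in HDC-KO and in WT. Points are differences of pool means, bars are 95% intervals from the spread of technical arrays, filled points are called, and dotted lines mark 2-fold. Slc4a1 lies at 2.34 in tumor and -1.81 in marrow, the second with an HDC-KO mean under log2 5, and all members other than Slc4a1 lie between -0.21 and 0.34 in marrow.

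Iron is also used in iron-sulfur clusters, and its stress response runs through the factors Nrf2 and Bach1, which control Hmox1. Of 9 genes of iron-sulfur cluster assembly tested, 1 rose and 1 fell in the tumor pool labelled HDC-KO, with a median difference of 0.31. Nfu1, a late carrier of clusters, averaged 8.45 in the pool labelled HDC-KO against 10.09 in the WT tumor pool, and fell by 1.64. Fdx1, an electron donor, differed by 1.33, and by 0.91 once array 2 of that HDC-KO pool was left out, which ended the call. Of 14 genes under Nrf2 and Bach1 control tested, 2 rose and 3 fell, with a median of 0.30. The catalytic subunit gene Gclc of glutathione synthesis rose by 1.43, while its partner subunit Gclm fell to a mean of 9.07 in the pool labelled HDC-KO, against 10.07 in the WT tumor pool, and the small Maf gene Mafg, whose protein pairs with both factors, fell by 1.20. Srxn1, which repairs oxidized peroxiredoxin, differed by 1.14, and Gsr, glutathione reductase, by -1.06. Several of these calls were narrow: Srxn1 (0.74) and Gclm (-0.94) lost theirs without array 2 of the tumor pool labelled HDC-KO, Gclm (-0.99) without array 1 and Gsr (-0.96) without array 2 of the WT tumor pool, and a second Mafg probe set gave -0.83. In marrow limma called 0 of these 9 and 0 of these 14 genes, and 6 of each list had an unadjusted p under 0.05. Iscu, Nfs1, Isca1, Lyrm4 and Ciao1 of the first list also had a limma adjusted p under 0.05 but were under 2-fold. The same held for Keap1, Mafg, Mafk, Slc7a11 and Gsr of the second.

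Pearson's r over the 8 arrays was used to name the genes whose pattern was most like each member, as a description of 4 pools with 2 arrays each. For Hmox1 these were Fh1, Ank and Dad1, each with r of 0.997. For Slc11a1 they were Myof (0.999), Itga5 and Kcnj10 (both 0.998). Ank, Myof, Itga5 and Kcnj10 had pool means under log2 5 outside the tumor pool labelled HDC-KO. Values under that level carry no order, so for these genes r mainly sets that pool against the rest. Fth1 was closest to F13a1, Steap4 and Ms4a4c (0.998, 0.997 and 0.997), of which Steap4 is the metalloreductase gene described above. Slc40a1 was closest to Tlr7 (0.991) and Alas1 to Map3k7 (0.998). Alas2 was closest to Pon2 (0.999), and Slc4a1 to Csf1 (0.997). Alas2 itself was under log2 5 outside the tumor pool labelled HDC-KO, so the same limit holds for its r. Tfrc had the least close neighbour, Arcn1, at 0.977.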

How the data were processed

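The authors deposited log2 expression values for 45101 probe sets on 8 mouse Affymetrix arrays, made with GCRMA per the submitters' processing notes. The labels used here name neither its version nor its settings. Scanner files were not used here. GCRMA subtracts a modelled background, which spreads low values, so log2 5 was taken as a floor for folds. Array depth does not apply, and the number of arrays limits the precision.

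Arrays were grouped by title into 4 pools of 2 technical arrays, whose values correlated at 0.9955 to 0.9981. Of the probe sets, 34958 had 1 gene symbol, 932 several and 9211 none in the platform annotation, and only the first were named. Each gene was represented by its probe set with the highest mean, control sets aside, and genes with 2 arrays at log2 5 or above were tested (8173 of 18193). Group means were fitted with limma 3.58.1 (lmFit, eBayes, R 4.3.3) over all 8 arrays, with 4 residual degrees of freedom, and 5 contrasts were adjusted by Benjamini-Hochberg over all genes tested. Adjusted p values in the report are from that fit, except those of a gene's second probe set and of Fth1 and Slc40a1 without the filter, which are from fits of every probe set and of all genes. Intervals are moderated 95% intervals. The procedure was tested on simulated data that held only the scatter of technical arrays, so that test says nothing about variation among mice or pools. The rule for names was all members, up to 3 called genes per list and comparison by size after raising to log2 5, and the 3 most alike patterns; where 5 or fewer genes of a list were called, others were also named after their values were seen. Members and gene lists were chosen with earlier results of these data known. Same-numbered arrays did not deviate together (r of -0.015 to 0.058), so the numbers did not pair them. Figures were drawn with matplotlib 3.10.9. Alternatives covered the filter, a floor, normalization, choice of probe set, the samples fitted, the model of the variance, a block on array number, and leaving out each array.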

Additional observations from a re-analysis of the deposited data

Results flagged for a closer look

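For 3 of the 10 genes the HDC-KO minus WT difference in tumor differed from that in marrow, by the interaction term of the fit and at least 2-fold. The excess in tumor was 1.44 for Hmox1, 2.54 for Alas2 and 4.15 for Slc4a1 (log2), beside 28.5% of all genes called in that term. The term draws on all 4 pools and rests on the label of the tumor pool labelled HDC-KO, whose Hdc level went against it. For Alas2 it fell to 0.59 with values raised to log2 5, since 3 of its 4 pools lay under that level. Alas2 was tested only through the tumor pool labelled HDC-KO, so its place among the 3 genes had to follow. For Slc4a1, whose HDC-KO marrow mean lay under it, the value was 2.83 with values raised, and the second probe set gave 2.24.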

How the results depend on the processing

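The number of members called was the same to within 1.5 times under all alternatives run, except in marrow, where the 1 call (Slc4a1) became 0 with values raised to log2 5 and 0 with probe sets averaged. Over single left-out arrays the counts were 1 in marrow, 3 between the tumor pools, 4 for tumor against marrow in cells labelled HDC-KO, 2 to 3 in WT cells and 3 for the interaction. The third WT call was Alas2, at 1.18 without array 2 of the WT marrow pool. Genes called over the whole array ranged from 286 to 311 in marrow and from 2122 to 2140 between the tumor pools over the same left-out arrays. The marrow differences of Slc11a1 (-0.12 to 0.038 over left-out arrays) and Alas2 (-0.13 to 0.34) changed sign without array 1 of the WT marrow pool, and neither was called; the WT marrow arrays of both genes lay on either side of the HDC-KO ones. Among the listed genes, a second Slc7a11 probe set turned the sign of the WT tumor minus marrow difference (-0.43) and of the interaction (0.91), and the cause was not tested. With the replicate number as a block, 312 genes were called in marrow and 2122 between the tumor pools, and no count of member calls changed. The fit restricted to the groups compared gave no interaction value, which needs all 4 pools.

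With 1 pool and 2 technical arrays a group, no spread between mice was measured, and differences between pools, mice and sorts cannot be told apart. Values under log2 5 carry no order. Tumor and marrow differ in age, treatment and gate, and the tumor pool labelled HDC-KO did not show a low Hdc level.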
